A study of Mus musculus with 6 samples.

Results

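The genes of the pyruvate dehydrogenase complex, its kinases and its phosphatases were examined in MLE12 cells, a mouse alveolar epithelial line. The 10 genes were chosen by name among the 54532 genes of the deposited table, and all 10 were measured and tested. They were the E1 subunits Pdha1 and Pdhb, the E2 core Dlat, the E3-binding protein Pdhx, the kinases Pdk1, Pdk2, Pdk3 and Pdk4, and the phosphatase catalytic subunits Pdp1 and Pdp2. RNA-seq was available for 3 Ctrl shRNA samples and 3 samples with Idh3α shRNA + Slc25a1 shRNA, called knockdown here. The labels give the treatment of the Ctrl shRNA samples as infection with empty lentiviral vectors, while the treatment protocol also names a control shRNA virus, so what the controls carried is uncertain. The knockdown samples received a lentivirus against Idh3α and another against Slc25a1 at the same time, which in the study was done to make citrate accumulate in mitochondria. Each virus was used at a multiplicity of infection of 50. The sources used here do not give the total amount of virus the controls received, so whether the groups differed in it is unknown. Both groups shared the cell line, the strain given as C57BL/6J, a medium change at 16 h and a further 80 h of culture. The cells were infected populations of a single line immortalised with a viral oncogene. The labels do not say that the 3 samples of a group came from separate infections, so p-values measure the spread between these samples, which may be technical.

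The pyruvate dehydrogenase complex converts pyruvate to acetyl-CoA in the mitochondrial matrix and so feeds the carbon that citrate synthase joins to oxaloacetate. E1 decarboxylates pyruvate with thiamine diphosphate, E2 passes the acetyl group to CoA on its lipoyl arm, and E3 reoxidises that arm. Pyruvate dehydrogenase kinases phosphorylate E1 alpha and switch the complex off, and the phosphatases remove the phosphate and switch it on again. The comparison asks whether the transcripts of this entry step differed when Idh3α and Slc25a1 were both targeted by shRNA. IDH3 is part of the path that uses citrate in mitochondria, and the citrate carrier (CIC, encoded by Slc25a1) exports it. RNA levels do not measure either activity.

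The total count per sample lay between 27273502 and 28535653 in the Ctrl shRNA group and between 27715153 and 28112519 in the knockdown group. Ctrl shRNA replicate 2 stood apart from the other 5 libraries. It had 16681 genes with a count against 19902 to 23147 in the others, and 6.49% of its counts were mitochondrial against 1.57 to 1.80%. Its 100 most abundant genes held 27.2% of the counts against 12.6 to 12.9%. The comparison of each gene is therefore given with and without it. The shRNA targets checked the labels. Idh3a measured 79.8, 136.5 and 93.0 CPM (counts scaled to library size and by the trimmed mean of M-values) in Ctrl shRNA replicates 1, 2 and 3 and 58.5, 57.9 and 55.5 CPM in the knockdown. Slc25a1 measured 103.2, 98.7 and 108.2 CPM in Ctrl shRNA and 68.9, 69.6 and 63.0 CPM in the knockdown. Both targets were below every control in every knockdown sample. With edgeR's quasi-likelihood test and Benjamini-Hochberg adjustment, the log2 fold changes of Idh3a and Slc25a1 were -0.85 (adjusted p = 0.254) and -0.62 (adjusted p = 0.104) with all samples. Without Ctrl shRNA replicate 2 they were -0.60 (adjusted p = 0.0142) and -0.66 (adjusted p = 0.00649), and both targets then fell. With all samples, DESeq2 called both lower (adjusted p = 0.0194 for Idh3a and 5.37e-06 for Slc25a1). So did limma with sample quality weights (adjusted p = 0.00289 and 0.00103). Of 10 lung epithelial markers, 7 had a mean of at least 1 CPM, and Sftpd, encoding surfactant protein D, was at 0 in every sample. The epithelial markers differed between the groups in both directions. Sftpc, encoding surfactant protein C, was 44.1 to 97.3 CPM in Ctrl shRNA and 27.2 to 35.9 CPM in the knockdown, and Nkx2-1, a lung lineage transcription factor, was 324 to 343 and 277 to 302 CPM. Cdh1, encoding E-cadherin, was 68.4 to 74.9 CPM in Ctrl shRNA and 75.7 to 83.8 CPM in the knockdown. Summed over the 10 genes the epithelial markers were 837 to 898 CPM and 784 to 837 CPM. Of 6 leukocyte markers, Ptprc, Adgre1 and Itgam were at 0 in every sample and Csf1r and Cd3e were under 1 CPM. Cd68, a lysosomal protein abundant in macrophages, was 1.65 to 1.92 CPM in Ctrl shRNA and 2.34 to 2.73 CPM in the knockdown. The part of these markers in the results was not tested.

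No gene of the complex, its kinases or its phosphatases passed the threshold of an adjusted p under 0.05. In edgeR with all samples, 0 of the 10 genes rose and 0 fell, where 0.0653% of the 15307 genes tested were called. Without Ctrl shRNA replicate 2 the count was again 0 of 10, with 1.79% of 15709 genes called. DESeq2 also called 0 of 10 against 2.71% of 13028 genes, and limma with sample quality weights called 0 of 10 against 15.0% of 15307. At an unadjusted p under 0.05, edgeR gave 1 gene, Pdp2, against 14.1% of all genes tested. The median log2 fold change of the 10 genes was -0.05 with all samples and 0.01 without Ctrl shRNA replicate 2. Over all genes tested the medians were -0.01 and -0.02. The precision differed between the genes, with standard errors of the log2 fold change from 0.067 for Dlat to 0.35 for Pdk3. With Ctrl shRNA replicate 2 left out, Pdk2 and Pdk4 had the largest, at 0.164 and 0.157. With all samples, 9 of the 10 intervals lay within a 2-fold change in either direction, and without that replicate all 10 did. In bulk RNA, fewer cells of a type and less RNA per cell cannot be told apart.

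**Figure D1:**
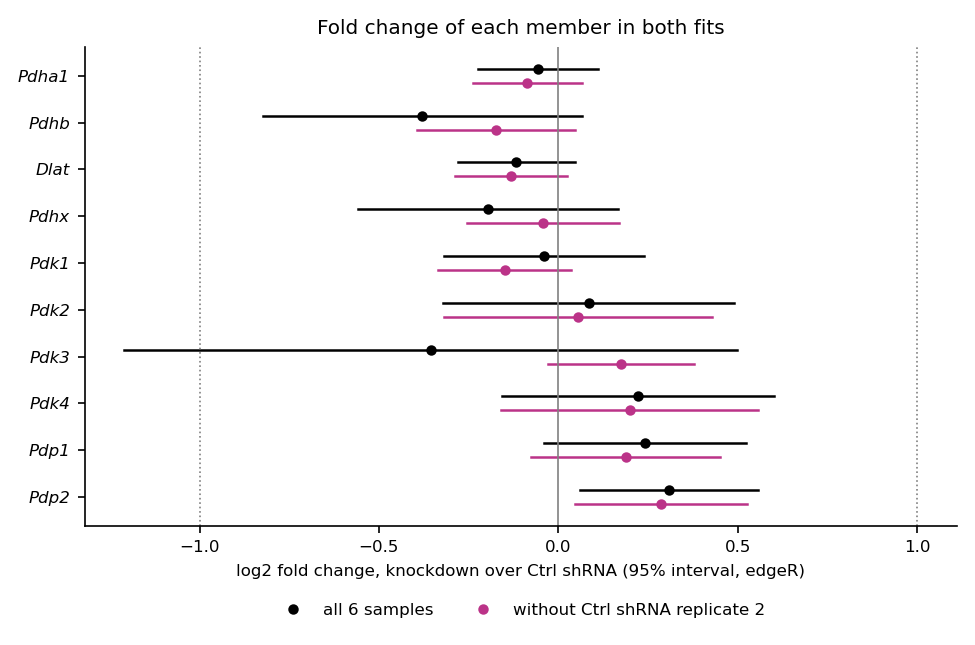
Log2 fold change of each gene, knockdown over Ctrl shRNA, on the x axis, with 95% intervals from edgeR for all 6 samples (black) and without Ctrl shRNA replicate 2 (magenta). Dotted lines mark a 2-fold change in either direction; the Pdk3 interval runs from -1.21 to 0.50 with all samples and from -0.03 to 0.38 without that replicate.

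Pdha1 encodes E1 alpha, the subunit that the kinases phosphorylate. It lies on the minus strand of chromosome X, from 160122209 to 160138413 in GRCm38. Its level was 107.5, 104.7 and 110.7 CPM in Ctrl shRNA replicates 1 to 3 and 104.8, 98.8 and 106.8 CPM in the knockdown samples. The group means were 108 ± 3.01 and 103 ± 4.17 CPM (SD, n = 3 each), and the groups overlapped. In edgeR its log2 fold change was -0.06 (95% interval -0.22 to 0.11, adjusted p = 0.685). Leaving out Ctrl shRNA replicate 2 gave -0.09 (95% interval -0.24 to 0.06, adjusted p = 0.500). Leaving out knockdown replicate 2 gave -0.02. Pdha1 thus had among the narrowest intervals of the 10 genes. Part of the Pdha1 locus is shared with Map3k15 on the other strand, with 603 exonic bases in common, and whether the counting used strand is not stated in the sources used here. Map3k15 held 0 to 33 counts per sample.

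Pdhb encodes E1 beta and lies on chromosome 14 from 8165996 to 8173025, on the minus strand. It measured 97.3, 158.9 and 117.7 CPM in Ctrl shRNA and 101.9, 87.8 and 97.8 CPM in the knockdown. Its highest value was in Ctrl shRNA replicate 2, at 0.56 log2 units above the mean of the other control samples, and the groups overlapped. Its log2 fold change in edgeR was -0.38 (95% interval -0.82 to 0.07, adjusted p = 0.372), and without that replicate it was -0.17 (95% interval -0.40 to 0.05, adjusted p = 0.348). The difference was thus smaller once that library was left out. The enzyme holds both E1 subunits in equal number. The ratio of Pdhb to Pdha1 in FPKM, the deposited level per gene length and library size, was 0.876, 1.47 and 1.03 in Ctrl shRNA and 0.940, 0.860 and 0.886 in the knockdown. The ratio was most uneven in Ctrl shRNA replicate 2.

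Dlat encodes the E2 acetyltransferase that carries the lipoyl arms, on chromosome 9 from 50634633 to 50659780, minus strand. It measured 60.4, 60.6 and 62.5 CPM in Ctrl shRNA and 57.1, 57.9 and 54.2 CPM in the knockdown. Every knockdown sample was below every control. By edgeR the log2 fold change was -0.12 (95% interval -0.28 to 0.05, adjusted p = 0.409) with all samples and -0.13 (95% interval -0.29 to 0.02, adjusted p = 0.318) without Ctrl shRNA replicate 2. Dlat was the only one of the 10 genes whose knockdown samples all lay below the controls with all samples, where 10.7% of the genes tested had that pattern.

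Pdhx encodes the E3-binding protein that docks E3 to the E2 core, on chromosome 2 from 103021075 to 103073513, minus strand. It measured 22.5, 33.0 and 25.9 CPM in Ctrl shRNA and 24.0, 24.3 and 22.8 CPM in the knockdown. The groups overlapped, with Ctrl shRNA replicate 2 the highest sample. The edgeR log2 fold change was -0.20 (95% interval -0.56 to 0.17, adjusted p = 0.513), and -0.04 (adjusted p = 0.837) without that replicate. Leaving out Ctrl shRNA replicate 1 gave -0.31. The ratio of Dlat to Pdhx in FPKM was 2.16, 1.48 and 1.94 in Ctrl shRNA and 1.92, 1.92 and 1.91 in the knockdown. The 3 knockdown libraries were nearly identical in this ratio.

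**Figure D2:**
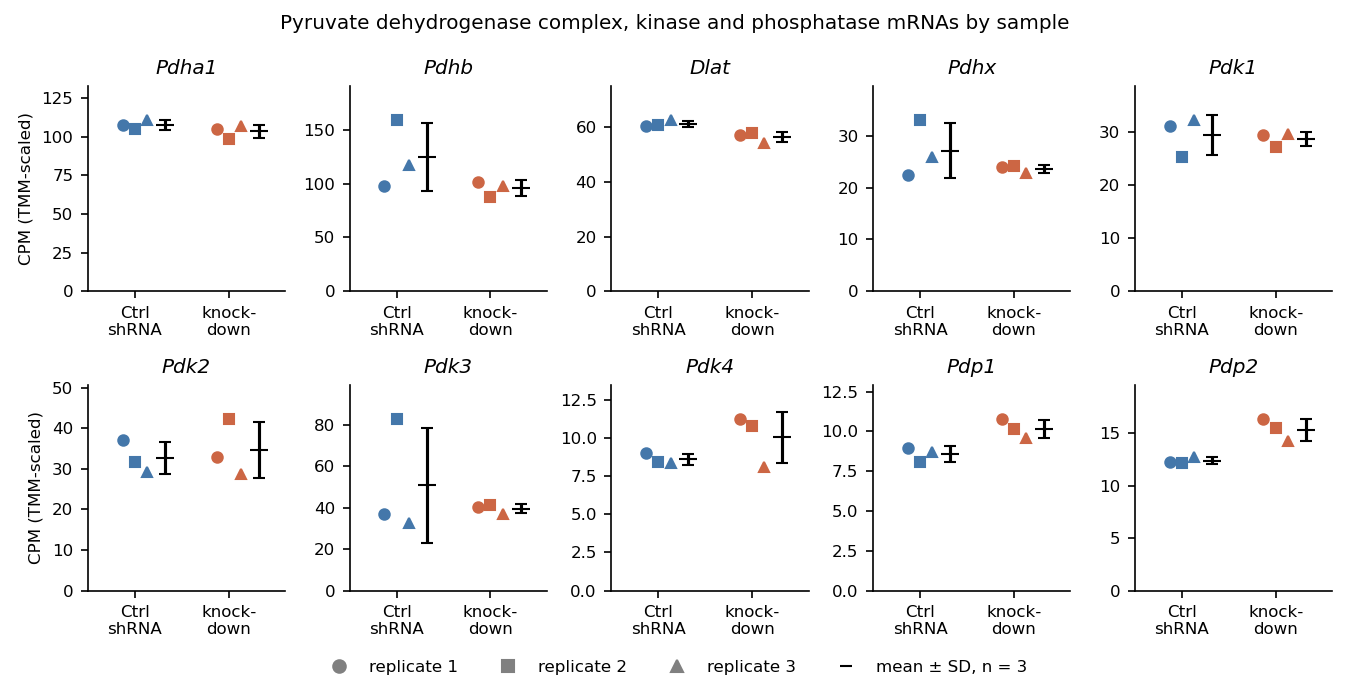
Level of each of the 10 genes in CPM on the y axis, in a panel per gene with its own scale from 0, for Ctrl shRNA (blue) and knockdown (orange), with the replicate number shown by symbol and the mean ± SD (n = 3) as a black bar. Ctrl shRNA replicate 2 stands far above the other samples for Pdk3 at 82.5 CPM, and all knockdown samples of Pdp1 and Pdp2 stand above all controls.

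The kinases differ in their regulation, and the best-known inducible members are Pdk1, a target of hypoxia-inducible factor, and Pdk4, which responds to fasting and lipid signals. Their upstream sequences are shown beside that of Pdp2, the gene with the smallest p, to show how unlike these promoters are. Each is the 250 bases before the RefSeq start of the gene on its own strand (GRCm38.p6), 5′ to 3′, with capitals at every match on either strand of 7 motifs. The motifs were GGGCGG, known as the GC box, CCAAT, the binding motif of NF-Y, and TATAAA, the TATA box. They also included ACGTG and its relative GCGTG, the core of hypoxia response elements, AGGTCA, the core that nuclear receptors bind, and TGTTTAC, a forkhead motif.
Pdk1, chr2:71872974-71873223, plus strand: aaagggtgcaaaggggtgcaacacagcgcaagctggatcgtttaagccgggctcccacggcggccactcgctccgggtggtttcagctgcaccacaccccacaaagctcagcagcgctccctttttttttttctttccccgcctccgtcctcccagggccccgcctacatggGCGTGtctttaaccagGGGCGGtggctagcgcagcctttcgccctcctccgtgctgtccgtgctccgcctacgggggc
Pdk4, chr6:5496279-5496528, minus strand: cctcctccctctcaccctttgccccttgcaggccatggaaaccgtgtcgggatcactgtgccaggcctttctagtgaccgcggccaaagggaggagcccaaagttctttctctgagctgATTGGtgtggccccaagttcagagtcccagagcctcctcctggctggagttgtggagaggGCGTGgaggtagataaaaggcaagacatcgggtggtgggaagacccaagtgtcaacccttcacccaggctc
Pdp2, chr8:104591222-104591471, plus strand: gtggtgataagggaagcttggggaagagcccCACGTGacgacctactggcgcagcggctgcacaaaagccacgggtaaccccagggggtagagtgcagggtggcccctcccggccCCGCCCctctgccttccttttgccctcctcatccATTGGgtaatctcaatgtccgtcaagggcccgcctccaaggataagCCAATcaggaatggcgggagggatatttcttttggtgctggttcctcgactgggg
The Pdp2 window held a single CACGTG, which reads ACGTG on both strands, a GGGCGG and 2 CCAAT matches. The Pdk1 window held a GGGCGG and a GCGTG, and the Pdk4 window a CCAAT and a GCGTG. These motifs are common in windows of this length, with GGGCGG in 32.7%, CCAAT in 33.8%, ACGTG in 16.6% and GCGTG in 28.2% of 32851 RefSeq promoters. TATAAA was found in 12.4% of them, AGGTCA in 14% and TGTTTAC in 3.17%, and these matched in none of the 9 promoters held for the 10 genes. The windows of Pdk1, Pdp2 and Pdk4 held 19, 11 and 6 CpG dinucleotides against a median of 6 over all promoters, and the other 6 windows held 15 to 29. A match is a description of these letters only. The promoter of Pdp1 was not used here.

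Pdk1 lies on chromosome 2 from 71873224 to 71903858, plus strand. It measured 31.0, 25.2 and 32.2 CPM in Ctrl shRNA and 29.3, 27.2 and 29.6 CPM in the knockdown. The lowest of the 6 samples was Ctrl shRNA replicate 2, and without it both remaining controls were above every knockdown sample. In edgeR its log2 fold change was -0.04 (95% interval -0.32 to 0.24, adjusted p = 0.878) with all samples and -0.15 (95% interval -0.34 to 0.04, adjusted p = 0.340) without that replicate. Under scaling by library size alone, the Pdk1 value turned to 0.11, while the median of all genes moved to 0.16.

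Pdk2, a kinase found in most tissues, lies on chromosome 11 from 95026258 to 95041354, minus strand. It measured 37.1, 31.8 and 29.1 CPM in Ctrl shRNA and 33.0, 42.2 and 28.8 CPM in the knockdown. The groups overlapped throughout, with the highest and the lowest sample both in the knockdown group. Its log2 fold change in edgeR was 0.08 (95% interval -0.32 to 0.49, adjusted p = 0.816) and 0.05 (adjusted p = 0.883) without Ctrl shRNA replicate 2. It was -0.08 without knockdown replicate 2 and -0.0059 without Ctrl shRNA replicate 3, so its sign rested on single libraries.

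Pdk3 lies on chromosome X from 93764607 to 93832201, minus strand, and encodes the kinase known for its high activity. It measured 36.9, 82.5 and 32.7 CPM in Ctrl shRNA and 40.4, 41.2 and 37.1 CPM in the knockdown. Ctrl shRNA replicate 2 was 1.246 log2 units above the mean of the other controls, the widest such departure among the 10 genes. The edgeR log2 fold change with all samples was -0.36 (95% interval -1.21 to 0.50, adjusted p = 0.616). Without that replicate it was 0.17 (95% interval -0.03 to 0.38, adjusted p = 0.314), and the knockdown samples then lay above the remaining controls. The direction of Pdk3 thus depended on that library, and neither fit passed the threshold.

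Pdk4 lies on chromosome 6 from 5483351 to 5496309, minus strand. It had the lowest FPKM of the kinase transcripts, and it measured 9.01, 8.45 and 8.37 CPM in Ctrl shRNA and 11.2, 10.8 and 8.13 CPM in the knockdown. Knockdown replicates 1 and 2 were above all controls and knockdown replicate 3 was below them. By edgeR the log2 fold change was 0.22 (95% interval -0.16 to 0.60, adjusted p = 0.486), and 0.20 (adjusted p = 0.515) without Ctrl shRNA replicate 2. It was 0.36 without knockdown replicate 3 and 0.14 without knockdown replicate 1, so its size rested on single libraries.

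The phosphatase genes had positive log2 fold changes in both fits, and neither passed the threshold. Pdp2 encodes a phosphatase catalytic subunit and lies on chromosome 8 from 104591451 to 104599026, plus strand. It measured 12.2, 12.2 and 12.8 CPM in Ctrl shRNA and 16.3, 15.5 and 14.2 CPM in the knockdown. The group means were 12.4 ± 0.34 and 15.3 ± 1.06 CPM (SD, n = 3 each), a ratio of 1.24, and the groups did not overlap. The edgeR log2 fold change was 0.31 (SE 0.10, 95% interval 0.06 to 0.56, unadjusted p = 0.0223, adjusted p = 0.339). Leaving out Ctrl shRNA replicate 2 gave 0.29 (95% interval 0.05 to 0.53, adjusted p = 0.189). Pdp2 therefore did not pass the correction over all genes, although its value was higher in 3 of 3 knockdown samples than in any control. Its adjusted p was 0.191 in DESeq2 and 0.0630 in limma with sample quality weights. Counts behind these values ran from 240 to 485 reads.

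Pdp1 encodes the other catalytic subunit, known as the calcium-stimulated form, and lies on chromosome 4 from 11958184 to 11966452, minus strand. It measured 8.98, 8.05 and 8.72 CPM in Ctrl shRNA and 10.8, 10.1 and 9.58 CPM in the knockdown. The groups again did not overlap. In edgeR its log2 fold change was 0.24 (SE 0.12, 95% interval -0.04 to 0.52, adjusted p = 0.371), and 0.19 (adjusted p = 0.398) without Ctrl shRNA replicate 2. Pdp1 and Pdp2 were the 2 of 10 genes whose knockdown samples lay above all controls, where 14.7% of the genes tested had that pattern. With Ctrl shRNA replicate 2 left out, the pattern was seen in 3 of 10 genes above (Pdk3, Pdp1 and Pdp2) against 20.3% of the genes tested. It was seen in 3 of 10 below (Pdha1, Dlat and Pdk1) against 17.3%. These counts of 1 to 3 genes stood close to the shares over all genes.

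Levels per length placed the E1 transcripts highest and the phosphatase transcripts lowest. In Ctrl shRNA, Pdhb stood at 32.3 ± 7.86 FPKM, Pdha1 at 28.9 ± 1.04, Pdk3 at 19.8 ± 10.6, Dlat at 12.6 ± 0.31 and Pdk2 at 10.4 ± 1.302 (SD, n = 3). Below them were Pdhx at 6.92 ± 1.303 FPKM, Pdk1 at 3.80 ± 0.51, Pdk4 at 2.46 ± 0.11, Pdp2 at 2.18 ± 0.07 and Pdp1 at 1.91 ± 0.12. From Pdhb to Dlat, each gene's range over the samples overlapped that of the next, and from Dlat down no neighbours overlapped. Without Ctrl shRNA replicate 2, Pdhb and Pdk3 no longer overlapped in the controls, while Pdha1 with Pdhb and Pdk3 with Dlat did. In the knockdown the order was Pdha1 at 27.8 ± 1.14 FPKM, Pdhb at 24.9 ± 1.90, Pdk3 at 15.5 ± 0.83, Dlat at 11.6 ± 0.39, Pdk2 at 10.99 ± 2.17, Pdhx at 6.04 ± 0.19, Pdk1 at 3.70 ± 0.17, Pdk4 at 2.87 ± 0.48, Pdp2 at 2.70 ± 0.19 and Pdp1 at 2.26 ± 0.13. There the overlapping neighbours were Dlat with Pdk2 and Pdk4 with Pdp2. The order from Pdk3 down was the same in both groups. Without Ctrl shRNA replicate 2, Pdha1 at 29.4 FPKM was above Pdhb at 28.1 in the controls too.

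Among the kinase transcripts, Pdk3 held the largest share of the summed kinase FPKM in every sample. Its share was 44.1, 67.2 and 44.8% in Ctrl shRNA and 47.5, 44.7 and 48.8% in the knockdown. Pdk2 was next, with 35.9, 21.0 and 32.3% in Ctrl shRNA and 31.5, 37.1 and 30.6% in the knockdown. Ctrl shRNA replicate 2 apart, the mix of kinase transcripts differed little between samples. Pdk1 made up 6.76 to 14.5% and Pdk4 5.03 to 9.64% over the 6 samples. Within the phosphatases, Pdp2 made up 51.9 to 54.8% in every sample, so the pair kept a nearly constant proportion.

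The summed phosphatase FPKM was 4.16, 3.89 and 4.21 in Ctrl shRNA and 5.27, 4.98 and 4.64 in the knockdown, with no overlap. The summed kinase FPKM was 32.9, 47.5 and 28.7 in Ctrl shRNA and 33.3, 36.1 and 29.8 in the knockdown, and here the groups overlapped. The ratio of kinase to phosphatase FPKM was 7.91, 12.2 and 6.82 in Ctrl shRNA and 6.32, 7.24 and 6.43 in the knockdown. The mean ratio was 8.98 ± 2.86 against 6.67 ± 0.50 (SD, n = 3 each), and without Ctrl shRNA replicate 2 the control mean was 7.37. The ratios of the groups overlapped in both cases. The summed kinase FPKM relative to Pdha1, the kinases' substrate, was 1.14, 1.71 and 0.961 in Ctrl shRNA and 1.18, 1.36 and 1.04 in the knockdown, also overlapping with or without Ctrl shRNA replicate 2. These sums are descriptions of transcript levels and carry no test.

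**Figure D3:**
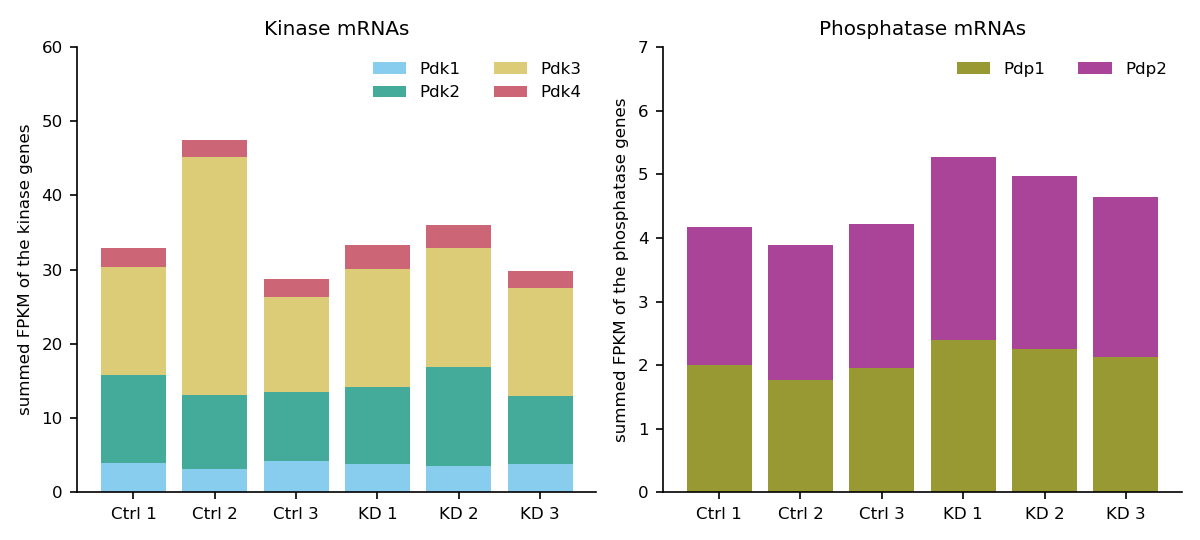
Summed FPKM of the kinase genes (left) and phosphatase genes (right) in each sample on the y axis, with the part of each gene stacked by colour; Ctrl 1 to 3 are Ctrl shRNA and KD 1 to 3 knockdown replicates. Pdk3 makes the kinase bar of Ctrl shRNA replicate 2 the tallest at 47.5 FPKM, and the phosphatase bars are 3.89 to 4.21 FPKM in Ctrl shRNA and 4.64 to 5.27 FPKM in the knockdown.

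Ctrl shRNA replicate 2 affected the genes unevenly. Against the mean of the other controls on the log2 scale, it was 1.246 higher for Pdk3, 0.56 higher for Pdhb, 0.45 higher for Pdhx and 0.33 lower for Pdk1 (a difference of -0.33). Pdp1 differed by -0.14, and the other 5 genes differed by at most 0.06 in either direction. Some genes around the complex departed too, and others, such as Ldha at 0.02, did not. Dld, encoding the shared E3, was 0.69 higher in that library, and Pdpr, encoding the regulatory subunit of the phosphatase, differed by -0.73. Mpc1 and Mpc2, which form the carrier that brings pyruvate into mitochondria, were 1.37 and 1.69 higher. The 10 genes together held 0.0373% of the counts of that library and 0.0438 to 0.0463% of the other 5. The summed CPM of the fibroblast markers, mostly Dcn, was 346 to 1234 in Ctrl shRNA, 346 to 377 without that replicate and 317 to 345 in the knockdown. Within that list, Pdgfra was 2.23 to 2.68 CPM in Ctrl shRNA and 3.43 to 3.91 CPM in the knockdown, and Col1a1 overlapped between the groups. The summed endothelial markers, mostly Tek, were 36.7 to 45.8 CPM in Ctrl shRNA and 31.9 to 33.3 CPM in the knockdown. The part of any of these values in the results was not tested.

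The wider pathway was read through 50 further genes in 7 roles, of which 45 were tested. Pdha2, the testis form of E1 alpha, and the transporters Slc19a3 and Slc16a7 had 0 counts in all samples, and Acss1 and Ppara were below the count filter. With all samples, edgeR called 0 higher and 0 lower, and at an unadjusted p under 0.05 it gave 8 higher and 3 lower, where 14.1% of all genes tested passed. Without Ctrl shRNA replicate 2, 1 gene rose and 2 fell of the 45, where 1.79% of all genes tested were called. The median log2 fold change of the 45 genes was 0.03 with all samples and -0.04 without that replicate. DESeq2 with all samples called 3 higher (Ldha, Slc16a3 and Bckdhb) and 1 lower (Pck2), where 2.71% of the 13028 genes with an adjusted p in DESeq2 were called. DESeq2 without Ctrl shRNA replicate 2 also called Me1 higher and Gpt2 lower. Limma with sample quality weights called 6 higher (Ldha, Slc16a3, Pcx, Me1, Bckdhb and Dbt) and 4 lower (Pck2, Gpt2, Sirt3 and Pparg), where 15.0% of all genes tested were called. Of these, Slc16a3, Bckdhb, Me1, Dbt, Sirt3 and Pparg were named after their values were seen.

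Ldha, encoding the lactate dehydrogenase subunit that favours lactate formation from pyruvate, rose without Ctrl shRNA replicate 2. It measured 416.2, 427.1 and 428.9 CPM in Ctrl shRNA and 568.2, 547.8 and 536.2 CPM in the knockdown, with no overlap. Its edgeR log2 fold change was 0.37 without that replicate (95% interval 0.22 to 0.52, adjusted p = 0.0325) and 0.38 with all samples (adjusted p = 0.245). The value hardly moved with that library, and the adjusted p did. Pck2, the mitochondrial enzyme that makes phosphoenolpyruvate from oxaloacetate, measured 94.4, 81.9 and 97.2 CPM in Ctrl shRNA and 72.3, 65.7 and 61.97 CPM in the knockdown. Its log2 fold change in edgeR was -0.53 without that replicate (adjusted p = 0.0174) and -0.45 with all samples (adjusted p = 0.245). Gpt2, the mitochondrial alanine transaminase that links pyruvate and alanine, measured 115.4, 101.2 and 115.4 CPM in Ctrl shRNA and 93.2, 89.4 and 91.5 CPM in the knockdown. It had an edgeR log2 fold change of -0.35 (adjusted p = 0.0336) without that replicate and -0.28 (adjusted p = 0.312) with all samples. Neither Pck2 nor Gpt2 overlapped between the groups.

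Pcx, Dld, Pdpr, Mpc1 and Mpc2 did not pass in edgeR with or without Ctrl shRNA replicate 2. Pcx encodes pyruvate carboxylase, another mitochondrial enzyme that uses pyruvate. It measured 40.8, 33.8 and 37.0 CPM in Ctrl shRNA and 47.3, 44.4 and 47.4 CPM in the knockdown. Its groups did not overlap, and its edgeR log2 fold change was 0.32 (adjusted p = 0.315), or 0.24 (adjusted p = 0.161) without Ctrl shRNA replicate 2. In limma with sample quality weights Pcx passed, at 0.32 (adjusted p = 0.0167), as did 9 other genes of the list. Dld had a log2 fold change of -0.35 (adjusted p = 0.410) and -0.09 (adjusted p = 0.516) in these edgeR fits. Pdpr had 0.06 (adjusted p = 0.894) and -0.15 (adjusted p = 0.410). The carrier subunits showed how far a single library could carry a value. Mpc1 had -0.58 (adjusted p = 0.485) with all samples and 0.01 (adjusted p = 0.975) without that replicate. Mpc2 had -0.98 (adjusted p = 0.376) and -0.19 (adjusted p = 0.371).

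**Figure D4:**
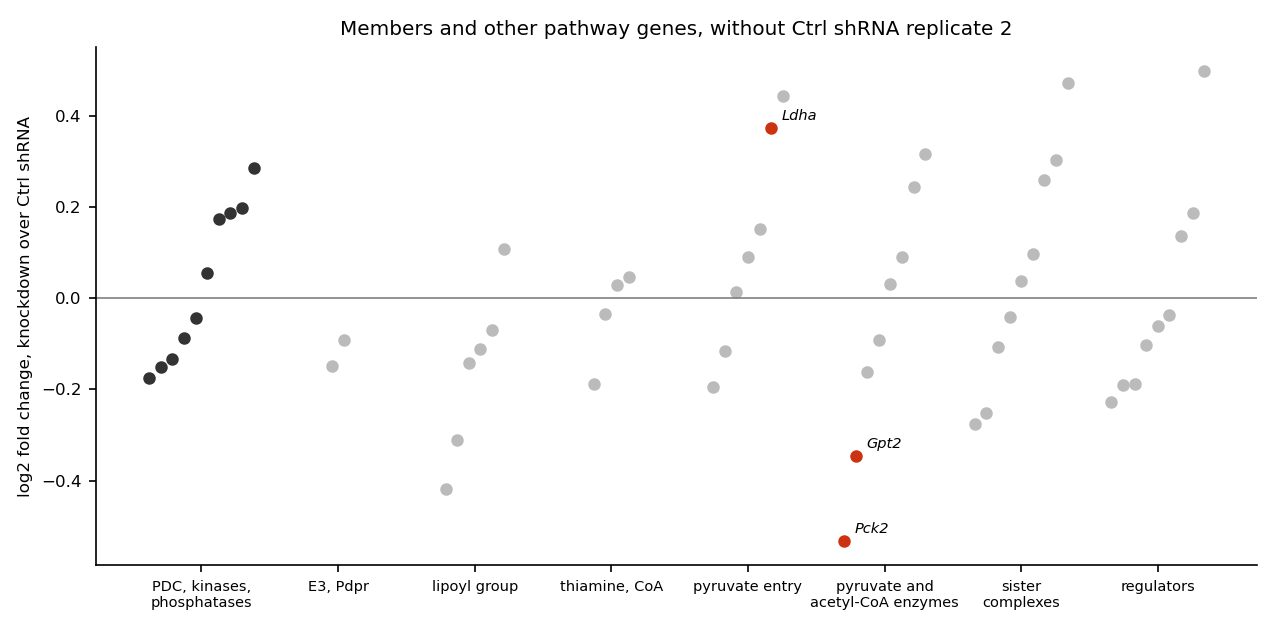
Log2 fold change, knockdown over Ctrl shRNA, on the y axis, in edgeR without Ctrl shRNA replicate 2, for the 10 genes (black) and the 45 tested pathway genes by role on the x axis. Each point is a gene, and red points passed an adjusted p under 0.05 (Ldha at 0.37, Gpt2 at -0.35 and Pck2 at -0.53).

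Beyond these lists, the genes whose profile over the 6 samples was most like that of Pdha1 were Rspry1, Qk and Gtpbp8. Their root mean square differences of log2 CPM, after centring each gene on its own mean, were 0.0228, 0.0230 and 0.0237, among 14178 genes that varied at least as much as Pdha1. For Pdp2 they were Tesc, Calr and Zfp59, at 0.0420, 0.0438 and 0.0472 among 9864 genes. These are the closest of many profiles, over only 6 samples.

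Sequence shared with other genes could touch some of the counts. In words of 50 bases along the longest transcript, Pdha1 shared 16.9% with other annotated genes, mostly Map3k15, and Pdhb shared 2.84% with 12 genes, of which Gm6123 held the most. Pdk4 shared 1.43%, Pdhx 0.163% and Pdp2 0.0709%. Dlat, Pdk1, Pdk2, Pdk3 and Pdp1 shared none, and no gene of the 10 shared a word with another of them. Pdk2 is overlapped by the antisense gene Gm11513, with 0 shared exonic bases and 0 to 5 counts per sample.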

How the data were processed

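RNA-seq of 6 MLE12 samples was analysed, 3 per group, with groups and replicate numbers taken from the labels. The authors deposited whole-number counts per gene and FPKM values, in which each count is scaled to the length of the gene and to a library size that was 0.716 to 1.08 of its total count. Per the labels, the submitters' processing notes name HISAT2 2.0.5, StringTie 1.3.3b, featureCounts 1.5.0-p3 and the build mm10, and the use of strand is not given in the sources used here. Coordinates of 98.3% of 54409 genes, and of all 10 described, matched GENCODE M21. No column of per-sample values was left unused.

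Counts were filtered with filterByExpr, scaled by TMM and tested over all genes with edgeR 4.0.16 (R 4.3.3), with Benjamini-Hochberg adjustment and a threshold of 0.05. DESeq2 1.42.0 and limma 3.58.1 were alternatives. FPKM was used for levels between genes, without a test. The smallest two-sided p of an exact permutation with 3 samples per group is 0.1. Replicates differed by more than sampling noise (chi-square per degree of freedom of 5.67 or more). The members and lists were chosen with earlier results of these data known. Named genes were the 10 members, the shRNA targets, pathway genes past the threshold with or without Ctrl shRNA replicate 2, Dld, Pdpr, Mpc1, Mpc2, Ldha and Pcx, and the 3 genes most like Pdha1 and Pdp2. Slc16a3, Bckdhb, Me1, Dbt, Sirt3 and Pparg, called only in alternatives, and single marker genes were named after their values were seen. Scripts were tested on simulated data with 200 genes changed 2-fold, where edgeR recovered 83 with 3 false calls at the spread of all samples (14979 genes) and 153 with 7 false calls without Ctrl shRNA replicate 2 (15401 genes). Figures used matplotlib 3.10.9 and pandas 2.3.3 (Python 3.11.15). Intervals cover the spread between these samples only.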

Additional observations from a re-analysis of the deposited data

How the results depend on the processing

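Over 20 alternatives, 2 of them chosen after seeing the data, no member passed an adjusted p under 0.05, and counts of members stayed at 0 higher and 0 lower except for 1 higher (Pdp2) at an unadjusted p under 0.05, with or without Ctrl shRNA replicate 2. Pdp2, Pdp1 and Pdk4 were positive and Pdhb negative in 20 of 20 alternatives. The unadjusted alternatives reuse the fold changes of other fits, and all use the same libraries, so the signs are not independent. The adjusted p of Pdp2 ran from 0.0630 to 0.675 apart from its unadjusted values of 0.0223 and 0.0247. Scaling by library size only, which moved the median of all genes to 0.16, turned Pdha1 to 0.11, Dlat to 0.0554, Pdhx to 0.0164 and Pdk1 to 0.11. Pdk1 was 0.0014 without Ctrl shRNA replicate 1 and 0.0137 without replicate 3, and the values leaving out each library ran from -0.1502 to 0.0137. Pdk2 was -0.0059 without Ctrl shRNA replicate 3, -0.0787 without knockdown replicate 2 and -0.10 with a replicate block without Ctrl shRNA replicate 2. That block fit leaves knockdown replicate 2 alone in its block, so its group comparison rests on replicates 1 and 3 of each group. Pdk3 was 0.17 without Ctrl shRNA replicate 2 (the same at an unadjusted threshold), 0.18 in DESeq2 without it, 0.15 with a replicate block without it and 0.21 with sample quality weights, and leaving out each library it ran from -0.6062 to 0.1745. The causes were not tested.

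Pathway counts, 0 higher and 0 lower with all samples, were 3 and 1 in DESeq2, 4 and 2 in DESeq2 without Ctrl shRNA replicate 2, 6 and 4 with quality weights, 8 and 3 at an unadjusted p under 0.05, 9 and 7 at that threshold without Ctrl shRNA replicate 2, and 2 and 1 with a replicate block without it. Leaving out each library in turn gave 0 to 1 higher and 0 to 2 lower. Over all genes, with 9 higher and 1 lower in edgeR, the counts were 1 and 0 by library size only, 12 and 3 with no count filter, 214 and 139 in DESeq2, 492 and 332 in DESeq2 without Ctrl shRNA replicate 2, 1327 and 971 with quality weights, and 1144 and 1018 unadjusted. Limma on log2(FPKM + 1) gave 8 and 2, on log2(FPKM + 0.1) 6 and 0, and with no filter 14 and 2. Without Ctrl shRNA replicate 2, an unadjusted threshold gave 1498 and 1622 of 15709 genes tested. The block there gave 225 and 251 of 15709, with the group comparison resting on replicates 1 and 3 of each group. DESeq2 without Ctrl shRNA replicate 2 fitted 27257 genes with a count. Leaving out each library gave 0 to 175 higher and 0 to 106 lower, the highest without Ctrl shRNA replicate 2, and no member passed in any of these fits. The replicate block with all samples gave 0 and 0 over all genes and changed no call of a member. Samples with the same number deviated with correlations of -0.155, -0.092 and 0.043, and samples with different numbers with -0.0392 to 0.146. With 3 samples per group, these values cannot settle whether the numbers pair the samples. The biological coefficient of variation, 0.263 over the 6 libraries and 0.102 with Ctrl shRNA replicate 2 left out, limits what small differences could be called.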
